A study of Mus musculus with 12 samples.

Results

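The late response of liver without Pml to an acetaminophen (APAP) overdose was followed by comparing mice killed 6 h after the drug with untreated mice, all carrying the Pml knockout (KO). Of the 12 arrays of the study, 4 belong to this comparison: the 2 arrays titled as Pml KO with APAP at 6 h, and the 2 titled as Pml KO controls. The KO 6 h mice received 300 mg/kg APAP intraperitoneally in warmed PBS. The untreated KO mice served as controls, and the sources used here do not say whether they received a vehicle injection. Every mouse was female, of the BALB/cByJ strain and 2.5 months old. The other arrays are KO mice 2 h after APAP, and mice with Pml (wt) 6 h or 2 h after APAP or untreated, with 2 arrays in each of the 6 groups. Liver RNA was measured on Affymetrix Mouse Gene 1.1 ST arrays, which carry oligonucleotide probes along each transcript. Of 18820 genes with a probe set of their own, 17052 had a mean log2 intensity of at least 5 and were tested.

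Hepatocytes near the central vein turn APAP into a reactive quinone imine, which uses up glutathione, binds proteins and leads to failing mitochondria and cell death. Cells meet this with NRF2, which drives antioxidant genes, with HSF1, which drives chaperones, and with ATF4, which drives amino acid supply when translation is curbed. PML is the scaffold of nuclear bodies that hold SUMO-modified proteins and has been tied to oxidative stress, p53 and cell death.

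The probe set of Pml had a log2 intensity of 7.09 and 7.16 in KO 6 h liver, against 7.1 and 7.97 in untreated KO liver. The wt arrays lay at 7.87 and 7.88 at 6 h and 8.18 and 8.46 untreated. Untreated KO replicate 2, at 7.97, thus lay among the wt arrays, while the other 3 KO arrays of the comparison lay below all of them. In KO liver Pml differed between 6 h and untreated by -0.41 ± 0.24 (adjusted p = 0.211), and by 0.03 without that array. The platform has 1 probe set for Pml, and the sources used here do not say which part of the gene was deleted. On the first principal component, which followed the time after APAP, the KO 6 h arrays lay at 39.7 and 19.8, against -40.6 and -41.1 for the untreated KO arrays. The wt 6 h arrays lay at 44.8 and 42.9, and the KO 2 h arrays at 9.9 and 10.4, so KO 6 h replicate 2 lay between them on this component. On the second component the KO 6 h arrays lay together at 28.3 and 35.5, away from the KO 2 h arrays at -27.5 and -33.8, against 12.1 and 11.9 for the untreated KO arrays. Hepatocyte markers were at liver levels, with albumin (Alb) at 13.38 and 13.35 in KO 6 h liver and 13.4 and 13.32 in untreated KO liver. Of 12 hepatocyte markers 2 were called lower (16.7%) and 0 higher, near the 19.1% called lower over all tested genes. Fewer were called with an array left out, and 4 after quantile normalization. Nothing says that the samples came from separate animals, and the p-values thus cover no more than the spread among these samples, which may be technical. The number of arrays limits the precision.

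Without Pml, APAP was followed by wide changes in liver RNA at 6 h. Genes with an adjusted p below 0.05 in limma, here termed called, numbered 5949 of 17052 (34.9%), 2700 higher (15.8%) and 3249 lower (19.1%) in KO 6 h than in untreated KO liver. Counts of list members in this comparison are to be read against these shares. At least 2-fold changes numbered 610 higher and 637 lower, and the median over all tested genes was -0.05 on the log2 scale. Of the 5949 calls, 3014 also passed without each of the 4 arrays in turn. Leaving out KO 6 h replicates 1 and 2 kept 3669 and 4680 of them, and leaving out untreated KO replicates 1 and 2 kept 3934 and 3730.

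The largest rise was in Sprr1a, which encodes a small proline-rich protein of the cornified envelope of skin and is induced in injured epithelia and nerves. Levels here and below are log2 intensities, and differences are on the log2 scale, where 1 stands for 2-fold. Its level was 13.28 and 12.04 in KO 6 h liver, against 5.14 and 5.1 in untreated KO liver, a difference of 7.54 ± 0.46 on the log2 scale (adjusted p = 6.09e-06), or 186-fold. Both KO 6 h arrays were far above both untreated ones. The largest rises and falls against untreated KO and against KO 2 h were picked among called genes without overlap of arrays. Separation of the arrays is thus part of the rule for these genes. Aloxe3, a lipoxygenase of the skin barrier, rose by 6.88 ± 0.55 on the log2 scale (adjusted p = 2.02e-05). The transcription factor Atf3, which many stresses induce, stood at 12.56 and 11.2 in KO 6 h liver, against 5.65 and 5.38 in untreated KO liver, a rise of 6.37 ± 0.39 on the log2 scale (adjusted p = 6.09e-06). Replicate 2 of KO 6 h was the lower array in each of these 3 genes, yet it stayed far above the untreated arrays. Hspb1, the small heat shock protein HSP27, rose by 5.66 ± 0.36 on the log2 scale (adjusted p = 7.26e-06). A second Hspb1 probe set gave 5.78, while a dim one gave -0.44 (adjusted p = 0.0239). Tnfaip6, a secreted protein that binds hyaluronan and dampens inflammation, rose by 5.36 ± 0.84 on the log2 scale (adjusted p = 0.000841). Cidec, a lipid droplet protein, rose by 4.93 ± 0.28 on the log2 scale (adjusted p = 3.87e-06), and Tnfrsf12a, the receptor of the cytokine TWEAK, by 4.37 ± 0.18 (adjusted p = 7.24e-07). Dusp5, a phosphatase that switches off nuclear ERK, rose by 4.29 ± 0.72 on the log2 scale (adjusted p = 0.0013).

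The largest fall was in Thrsp, a regulator of fatty acid synthesis. Its log2 intensity was 6.19 and 7.41 in KO 6 h liver, against 11.32 and 11.55 in untreated KO liver, a difference of -4.64 ± 0.51 on the log2 scale (adjusted p = 0.000108). Hamp2, a close copy of the hepcidin gene Hamp whose signal may mix with it, differed by -4.54 ± 0.26 on the log2 scale (adjusted p = 3.87e-06), and Depp1, a target of FOXO factors, by -4.32 ± 0.59 (adjusted p = 0.000376). Hsd3b2, a steroid dehydrogenase, fell to 6.53 and 6.49 in KO 6 h liver, against 10.67 and 10.58 in untreated KO liver. In these 4 genes the KO 6 h arrays lay below both untreated KO arrays, as the rule for picking the largest falls required. Falls of 3.66 to 3.25 on the log2 scale were seen in Abca8a, an ABC transporter (-3.66), Keg1 (-3.6), Nrep (-3.49), Atp6v0d2, a proton pump subunit (-3.49), Syt1, a synaptotagmin (-3.26), and Etnppl, which breaks down phosphoethanolamine (-3.25). The tissue was measured in bulk, so fewer cells of a type and less RNA per cell cannot be told apart in any fall.

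**Figure D1:**
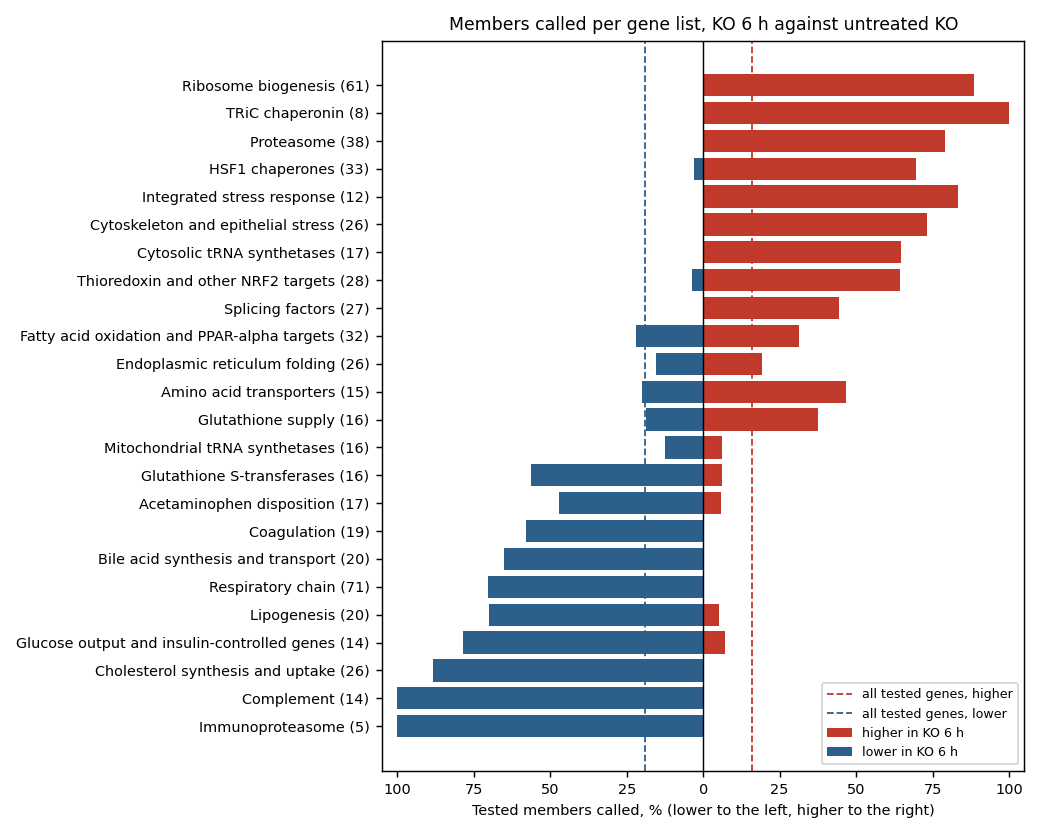
Share of each gene list's tested members called higher (red, to the right) and lower (blue, to the left) in KO 6 h than in untreated KO liver, in percent, with the number of tested members in brackets; dashed lines mark the shares over all tested genes, 15.8% higher and 19.1% lower. Ribosome biogenesis, TRiC and the proteasome reach far to the right, and complement, the immunoproteasome and cholesterol genes far to the left.

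Protein folding and breakdown machinery rose as groups. HSF1-driven chaperones had 23 of 33 tested members called higher and 1 lower, with a median log2 difference of 0.85. After Hspb1, the steepest rise was in Dnajb1, the HSP40 that loads clients onto HSP70, with 12.21 and 11.28 in KO 6 h liver, against 8.27 and 7.39 in untreated KO liver, a rise of 3.92 ± 0.44 on the log2 scale (adjusted p = 0.000118). Bag3, a co-chaperone that hands clients to autophagy, rose by 3.01 ± 0.58 on the log2 scale (adjusted p = 0.00284), and Hsph1, an HSP70 exchange factor, by 2.59 ± 0.31 (adjusted p = 0.000163). Hsp90aa1, the inducible HSP90, rose by 1.59 ± 0.14 on the log2 scale (adjusted p = 3.36e-05). The mitochondrial pair Hspd1 and Hspe1, which form one folding chamber, rose by 1.0 ± 0.14 and 1.06 ± 0.12 (adjusted p = 0.000352 and 0.000138). Trap1, the member called lower, lost its call without KO 6 h replicate 1 and without either untreated KO array.

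TRiC, the ring that folds actin and tubulin, had 8 of 8 tested subunits called higher, between 0.50 and 0.94 (median 0.82). Cct3 stood at 10.82 and 10.73 in KO 6 h liver, against 9.76 and 9.91 in untreated KO liver, a rise of 0.94 ± 0.16 on the log2 scale (adjusted p = 0.00165). The arrays of the groups did not overlap for Cct3. The proteasome, which degrades tagged proteins, had 30 of 38 members called higher and 0 lower (median 0.62). The rises covered 18 of 19 genes of the regulatory particle (median 0.93) and 11 of 13 of the core (median 0.53). Psmd14, the lid subunit that removes ubiquitin, rose by 1.16 ± 0.1 on the log2 scale (adjusted p = 2.5e-05), Psmd12 by 1.1 ± 0.1 (adjusted p = 3.19e-05) and the core subunit Psma5 by 1.09 ± 0.1 (adjusted p = 4.74e-05).

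The immunoproteasome moved the other way, with 5 of 5 members called lower (median -0.97). These are interferon-inducible subunits that sharpen the supply of peptides to MHC class I. Psmb8, Psmb9 and Psmb10 replace the standard catalytic subunits, and Psme1 and Psme2 form an activator. Psmb10 had 7.64 and 8.05 in KO 6 h liver, against 9.25 and 8.77 in untreated KO liver, a difference of -1.16 ± 0.22 on the log2 scale (adjusted p = 0.00263). The KO 6 h arrays lay below the untreated ones. Psmb8 differed by -0.97 ± 0.13 on the log2 scale (adjusted p = 0.000423), and the activator subunits Psme1 and Psme2 by -0.76 ± 0.14 and -0.88 ± 0.19 (adjusted p = 0.00263 and 0.00469). Psmb9 differed by -0.98 ± 0.25 on the log2 scale (adjusted p = 0.0132), and lost its call without KO 6 h replicate 1 (adjusted p = 0.0815) and without untreated KO replicate 1 (adjusted p = 0.102).

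Genes that build ribosomes rose widely, with 54 of 61 called higher, 0 lower and a median of 1.07. Nop56, a core protein of snoRNA particles that methylate ribosomal RNA, had 11.47 and 11.62 in KO 6 h liver, against 9.35 and 8.94 in untreated KO liver, a rise of 2.4 ± 0.23 on the log2 scale (adjusted p = 5.62e-05). Ncl, which encodes the nucleolar protein nucleolin, rose by 1.15 ± 0.11 on the log2 scale (adjusted p = 4.95e-05), Gar1, which serves pseudouridylation, by 1.86 ± 0.17 (adjusted p = 4.06e-05), and Ddx21, a nucleolar helicase, by 1.75 ± 0.17 (adjusted p = 6.15e-05). The rises lay in 28 of 31 nucleolar and small subunit genes, 18 of 19 large subunit genes and 8 of 11 genes of RNA polymerases I and III. Polr1b, the second largest subunit of RNA polymerase I, rose by 1.56 ± 0.15 on the log2 scale (adjusted p = 5e-05). Cytosolic tRNA synthetases, which charge tRNAs, had 11 of 17 called higher (median 0.75), and Sars rose by 1.25 ± 0.14 on the log2 scale (adjusted p = 0.000134). Their mitochondrial counterparts had 1 of 16 called higher and 2 lower (median -0.04), and the rise, of Yars2, lost its call without KO 6 h replicate 2 or untreated KO replicate 1. Among splicing factors 12 of 27 were called higher (7 without untreated KO replicate 1). Srsf3, an SR protein, stood out at 11.56 and 11.25 in KO 6 h liver, against 9.64 and 10.2 in untreated KO liver, a rise of 1.48 ± 0.17 on the log2 scale (adjusted p = 0.000153).

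Amino acid supply genes went both ways. Psat1, the aminotransferase of serine synthesis, had 11.76 and 11.1 in KO 6 h liver, against 6.26 and 6.13 in untreated KO liver, a rise of 5.24 ± 0.22 on the log2 scale (adjusted p = 7.24e-07), or 37.8-fold. Asns, which makes asparagine, had 8.74 and 7.87 in KO 6 h liver, against 4.58 and 4.54 in untreated KO liver, a rise of 3.75 ± 0.34 on the log2 scale (adjusted p = 3.7e-05). In both genes the KO 6 h arrays were far above the untreated ones. Mthfd2, of the mitochondrial folate cycle, rose by 1.74 ± 0.28 on the log2 scale (adjusted p = 0.000881), while other folate cycle genes fell, Mthfd1 by 1.77 (adjusted p = 6.09e-06), Shmt1 by 1.29 (adjusted p = 3.59e-05) and Aldh1l1 by 1.11 (adjusted p = 0.000259). In all, 5 of 12 genes of this list were called higher (3 without KO 6 h replicate 1 and 3 without untreated KO replicate 1) and 4 lower. Of the amino acid transporters 7 of 15 were called higher and 3 lower (median 0.24). Among those called higher, the carrier of large neutral amino acids Slc7a5 rose by 2.36 ± 0.23 on the log2 scale (adjusted p = 6.63e-05), its partner Slc3a2 by 0.97 ± 0.14 (adjusted p = 0.000465), the glycine carrier Slc6a9 by 1.33 ± 0.23 (adjusted p = 0.00157) and Slc1a4 by 1.6 ± 0.22 (adjusted p = 0.00044). The arginine carrier Slc7a2 and the leucine carrier Slc43a1 fell by 1.02 and 0.96 on the log2 scale. Genes of the integrated stress response, which ATF4 directs, had 10 of 12 called higher (median 1.04). Trib3, a pseudokinase that damps AKT and ATF4, rose by 1.7 ± 0.27 on the log2 scale (adjusted p = 0.00083), Eif4ebp1, a brake on translation, by 1.16 ± 0.12 (adjusted p = 7.06e-05), and Atf4 by 0.79 ± 0.15 (adjusted p = 0.00249). Chaperones and sensors of the endoplasmic reticulum were called about as often as all tested genes (15.8% higher and 19.1% lower), with 5 of 26 higher (3 without untreated KO replicate 2) and 4 lower (2 without KO 6 h replicate 1 or without either untreated KO array). Hspa5, the chaperone BiP, had 12.88 and 12.7 in KO 6 h liver, against 11.85 and 11.93 in untreated KO liver.

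Antioxidant genes rose unevenly. Srxn1, sulfiredoxin, which restores oxidised peroxiredoxins, had 12.67 and 12.52 in KO 6 h liver, against 8.17 and 8.26 in untreated KO liver, a rise of 4.38 ± 0.21 on the log2 scale (adjusted p = 2e-06). Txnrd1, thioredoxin reductase, rose by 2.19 ± 0.13 on the log2 scale (adjusted p = 4.97e-06), and Hmox1, heme oxygenase 1, by 3.17 ± 0.24 (adjusted p = 1.64e-05). Of this list of thioredoxin and other NRF2 targets 18 of 28 were called higher and 1 lower (median 0.56). Nqo1, a quinone reductase, rose by 1.39 ± 0.26 on the log2 scale (adjusted p = 0.00233), and Abcc4, an export pump of the basolateral membrane, had 9.49 and 9.65 in KO 6 h liver, against 7.44 and 7.47 in untreated KO liver, a rise of 2.12 ± 0.17 (adjusted p = 1.96e-05). In glutathione supply, Gclc, the catalytic subunit of the first synthesis step, rose by 0.95 ± 0.13 on the log2 scale (adjusted p = 0.000317), Gss by 0.65 ± 0.13 (adjusted p = 0.00365) and Gsr, which recycles the oxidised form, by 0.79 ± 0.1 (adjusted p = 0.000242). The cystine carrier Slc7a11 had 11.27 and 6.61 in KO 6 h liver, against 5.97 and 6.1 in untreated KO liver, so that one array was high and the other was at the untreated level (adjusted p = 0.0513). Cth, which makes cysteine from methionine, fell by 0.69 (adjusted p = 0.00303). Glutathione S-transferases mostly fell, 9 of 16 called lower and 1 higher. Gstm7, Gstm2 and Gstm6 fell by 1.32, 1.28 and 1.16, and Gstp1 rose by 1.65 ± 0.16 on the log2 scale (adjusted p = 6.97e-05). The Gstm genes are near-copies of each other, so their probe sets may share signal.

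Metal handling changed as well. Mt1, a metallothionein that binds zinc and copper, had 12.29 and 12.15 in KO 6 h liver, against 9.07 and 9.23 in untreated KO liver, a rise of 3.07 ± 0.11 on the log2 scale (adjusted p = 4.15e-07), and its near-copy Mt2 rose by 3.04 ± 0.4 (adjusted p = 0.000299). Slc39a10, a zinc importer, rose by 2.41 ± 0.25 on the log2 scale (adjusted p = 7.87e-05), Slc30a4 by 0.79 ± 0.16 (adjusted p = 0.00348) and the zinc-sensing factor Mtf1 by 0.73 ± 0.16 (adjusted p = 0.00553). Of 15 tested genes of this group 6 were called higher and 2 lower (1 lower without KO 6 h replicate 1, 1 without untreated KO replicate 2 and 1 after quantile normalization). Among heme and iron genes, Fech, which inserts iron into heme, fell by 0.87 (adjusted p = 0.000316) and Ppox by 1.13 (adjusted p = 0.000263). Id1, a target of BMP signalling, rose by 2.79 ± 0.33 on the log2 scale (adjusted p = 0.00017), and so did Smad7, a feedback inhibitor of the same path, by 1.75 ± 0.36 (adjusted p = 0.00402). Hamp, hepcidin, the BMP-driven hormone that restrains iron uptake, had 12.67 and 12.76 in KO 6 h liver, against 12.49 and 12.54 in untreated KO liver (adjusted p = 0.306).

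**Figure D2:**
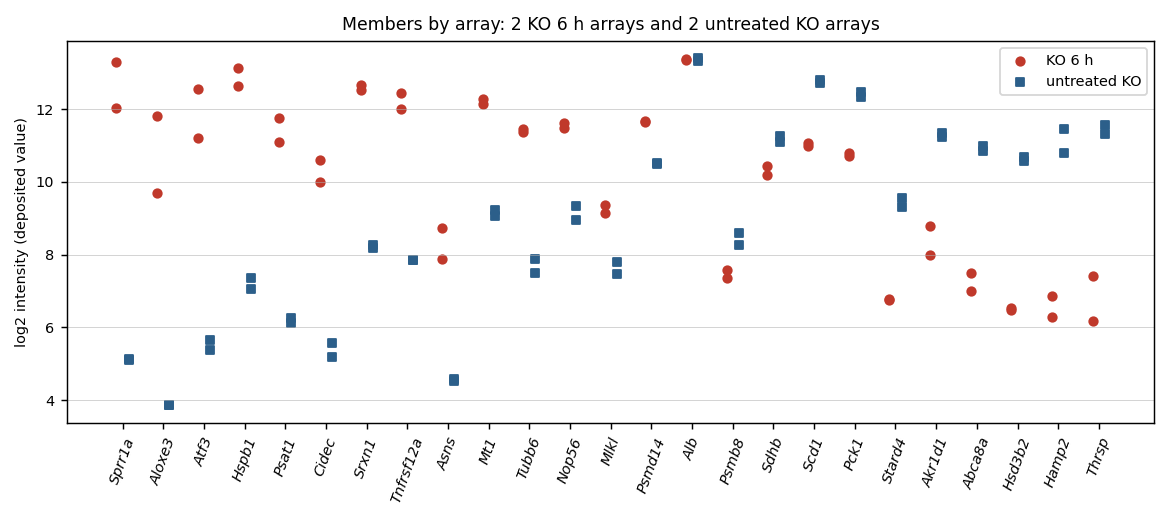
Log2 intensity of selected genes in each array, with KO 6 h arrays left of untreated KO arrays; each point is 1 array. Sprr1a, Atf3, Psat1 and Srxn1 are high in both KO 6 h arrays and low in both untreated KO arrays, and Thrsp, Hamp2 and Hsd3b2 are the other way round.

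The 7 promoters below were picked, after their matches were known, to show what the letters bound by 4 factors look like in genes that rose, and they are not in every list the genes with the largest rises. The same search found no match in the promoters of Psat1, Dnajb1 or Nqo1. The sequences come from RefSeq on build GRCm38.p6, from 250 bases before to 50 after the annotated start. Each is printed 5′ to 3′ on the strand of its gene, with the match in capitals. For NRF2 the letters were TGACNNNGC, for HSF1 GAANNTTC, for ATF4 and its partners TGATGNAAN, and for the zinc sensor MTF1 TGCNCNC, each searched on both strands. Srxn1 lies at chr2:152105274-152105573 on the plus strand, Abcc4 at chr14:118676882-118677181 on the minus strand, Hspb1 at chr5:135887669-135887968 on the plus strand and Hsph1 at chr5:149636266-149636565 on the minus strand. Asns lies at chr6:7693160-7693459 and Atf3 at chr1:191183284-191183583, both on the minus strand, and Mt1 at chr8:94178839-94179138 on the plus strand.
Srxn1: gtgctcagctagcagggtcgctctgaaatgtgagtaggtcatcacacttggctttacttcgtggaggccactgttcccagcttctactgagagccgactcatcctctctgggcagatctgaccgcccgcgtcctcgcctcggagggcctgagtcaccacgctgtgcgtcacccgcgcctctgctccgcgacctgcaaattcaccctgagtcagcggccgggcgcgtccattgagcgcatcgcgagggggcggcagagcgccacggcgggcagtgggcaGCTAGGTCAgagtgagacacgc
Abcc4: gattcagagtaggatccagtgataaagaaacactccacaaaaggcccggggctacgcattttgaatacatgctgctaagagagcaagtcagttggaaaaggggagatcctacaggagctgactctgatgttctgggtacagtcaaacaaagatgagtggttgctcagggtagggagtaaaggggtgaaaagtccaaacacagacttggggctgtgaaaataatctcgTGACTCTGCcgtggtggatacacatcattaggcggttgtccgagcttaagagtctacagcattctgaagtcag
Hspb1: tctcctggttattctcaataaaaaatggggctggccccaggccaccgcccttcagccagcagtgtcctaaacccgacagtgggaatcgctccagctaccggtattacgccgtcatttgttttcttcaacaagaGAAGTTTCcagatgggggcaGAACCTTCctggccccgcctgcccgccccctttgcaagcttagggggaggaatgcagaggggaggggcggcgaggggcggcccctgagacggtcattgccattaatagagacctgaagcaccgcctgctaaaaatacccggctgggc
Hsph1: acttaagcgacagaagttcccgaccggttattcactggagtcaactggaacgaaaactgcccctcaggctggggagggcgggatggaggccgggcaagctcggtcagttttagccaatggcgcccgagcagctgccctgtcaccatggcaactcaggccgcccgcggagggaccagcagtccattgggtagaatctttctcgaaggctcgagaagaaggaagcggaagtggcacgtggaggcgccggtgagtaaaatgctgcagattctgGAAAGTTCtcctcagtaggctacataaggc
Asns: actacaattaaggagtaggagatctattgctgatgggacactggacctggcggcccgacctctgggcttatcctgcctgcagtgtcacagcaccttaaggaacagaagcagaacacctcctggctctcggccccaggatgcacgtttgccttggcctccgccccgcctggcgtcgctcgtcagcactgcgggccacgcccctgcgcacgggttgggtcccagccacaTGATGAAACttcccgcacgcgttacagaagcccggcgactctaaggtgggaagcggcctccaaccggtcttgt
Atf3: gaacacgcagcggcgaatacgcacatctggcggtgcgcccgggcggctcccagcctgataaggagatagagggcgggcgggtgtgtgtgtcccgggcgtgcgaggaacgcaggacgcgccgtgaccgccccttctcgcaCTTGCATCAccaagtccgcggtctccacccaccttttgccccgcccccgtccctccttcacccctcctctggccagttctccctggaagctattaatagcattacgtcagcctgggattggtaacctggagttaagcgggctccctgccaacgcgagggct
Mt1: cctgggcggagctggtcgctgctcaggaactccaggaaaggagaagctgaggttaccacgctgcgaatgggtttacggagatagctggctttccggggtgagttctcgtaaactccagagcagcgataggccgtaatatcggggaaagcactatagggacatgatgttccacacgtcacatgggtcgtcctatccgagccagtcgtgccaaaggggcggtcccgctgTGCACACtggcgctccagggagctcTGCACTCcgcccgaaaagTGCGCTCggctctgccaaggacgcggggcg

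The first 2 promoters carry the NRF2 letters, Hspb1 and Hsph1 the HSF1 letters with 2 matches in Hspb1, Asns and Atf3 the ATF4 letters, and Mt1 3 matches to the MTF1 letters. Counting all promoters of the called members, the HSF1 letters were in 10 of 29 (34.5%), against 7.86% of all 32851 promoters in the table. The NRF2 letters were in 10 of 34 promoters of called antioxidant and glutathione genes (29.4%), against 12.4% of all. The ATF4 letters were in 8 of 25 promoters of called stress response, serine and tRNA synthetase genes (32.0%), against 3.95% of all. CACGTG, which MYC and related factors bind, was in 12 of 52 promoters of called ribosome biogenesis genes (23.1%), against 7.15% of all. The SREBP letters TCACNCCAC were in 1 of 25 promoters of called cholesterol genes (4.0%), against 1.24% of all. TGCNCNC was in 2 of 2 metallothionein promoters and in 51.0% of all. These are matches of letters within these windows, and some genes have several promoters in the table. Called members include those called lower, and shares among members not called were not counted. Several lists were gathered as targets of these factors, so the shares do not bear on which members rose.

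Lipid synthesis fell. Of the cholesterol genes 23 of 26 were called lower and 0 higher, with a median of -1.31, and 15 were called lower without untreated KO replicate 2. Insig1, which holds SREBP in the endoplasmic reticulum, had 9.73 and 8.93 in KO 6 h liver, against 11.9 and 12.02 in untreated KO liver, a difference of -2.63 ± 0.24 on the log2 scale (adjusted p = 4.36e-05). Fdft1, the entry to sterol synthesis, differed by -2.3 ± 0.24 on the log2 scale (adjusted p = 8.99e-05), Dhcr7, its last step, by -1.6 ± 0.14 (adjusted p = 3.36e-05), and Stard4, a sterol carrier, by -2.66 ± 0.16 (adjusted p = 5.72e-06). Sqle, squalene epoxidase, had 9.28 and 9.05 in KO 6 h liver, against 8.67 and 10.2 in untreated KO liver and did not pass (adjusted p = 0.676). Of the lipogenic genes 14 of 20 were called lower and 1 higher, and the 1 call upwards, of Me1, ended without KO 6 h replicate 1 and without either untreated KO array. Srebf1, the SREBP that drives fatty acid synthesis, differed by -2.42 ± 0.17 on the log2 scale (adjusted p = 1.18e-05), Mlxipl, the glucose-sensing factor ChREBP, by -1.74 ± 0.18 (adjusted p = 7.37e-05), Fasn, fatty acid synthase, by -1.49 ± 0.28 (adjusted p = 0.00223), and the desaturase Scd1 by -1.74 ± 0.11 (adjusted p = 7.26e-06).

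Fat burning and storage genes were split at 6 h. Over all tested genes 15.8% were called higher and 19.1% lower. Of 32 tested members 10 were called higher and 7 lower (4 lower without untreated KO replicate 2). Besides Cidec, the droplet coat protein Plin2 rose by 1.35 ± 0.1 on the log2 scale (adjusted p = 1.36e-05), the pantetheinase Vnn1 by 2.33 ± 0.28 (adjusted p = 0.00019) and the thioesterases Acot1 and Acot2, close copies of each other, by 2.45 ± 0.21 and 2.17 ± 0.24. Ehhadh, of peroxisomal oxidation, rose by 1.07 ± 0.12 on the log2 scale (adjusted p = 0.000102). The mitochondrial entry step Cpt1a had 11.35 and 10.86 in KO 6 h liver, against 11.43 and 11.4 in untreated KO liver, and Acadm had 12.04 and 11.74 against 11.78 and 11.78, with neither called. The receptor gene Pparg rose by 1.31 ± 0.16 on the log2 scale (adjusted p = 0.000169), and Ppara differed by -0.77 ± 0.18 (adjusted p = 0.00909), a call that ended without untreated KO replicate 2 (-0.49, adjusted p = 0.0816). The respiratory chain fell as a group, 50 of 71 subunits called lower and 0 higher, with a median of -0.49. That count was 24 without KO 6 h replicate 1 and 23 without untreated KO replicate 1. The falls were small, 1.08 for Uqcr11 of complex III (adjusted p = 0.000528), 0.87 for Sdhb of complex II (adjusted p = 0.000492), and 0.86 and 0.81 for Ndufb2 and Ndufa9 of complex I (adjusted p = 0.000268 and 0.000426).

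Bile acid genes fell, 13 of 20 called lower and 0 higher (median -0.71), against 19.1% called lower over all tested genes. Cyp7a1, the rate-limiting enzyme of their synthesis, had 8.18 and 9.15 in KO 6 h liver, against 11.68 and 11.29 in untreated KO liver, a difference of -2.82 ± 0.51 on the log2 scale (adjusted p = 0.00196). Akr1d1, a later step, differed by -2.89 ± 0.23 on the log2 scale (adjusted p = 2.02e-05), the uptake carrier Slco1a1 by -2.98 ± 0.42 (adjusted p = 0.000443), the export pump Abcb11 by -1.41 ± 0.12 (adjusted p = 2.48e-05) and Nr0b2, the repressor SHP that bile acids induce, by -2.03 ± 0.42 (adjusted p = 0.00425). In each of these 5 genes both KO 6 h arrays lay below both untreated ones. The share of all tested genes with arrays apart in this way was not counted. Cyp8b1 had 10.29 and 9.77 in KO 6 h liver, against 10.36 and 10.47 in untreated KO liver and did not pass (adjusted p = 0.108). The receptors Nr1h4 (FXR), Nr1i2 (PXR) and Nr5a2 (LRH-1) fell by 0.85, 0.87 and 1.04 (adjusted p = 0.0028, 0.00226 and 8.38e-05). They belong to a list of hepatocyte transcription factors of which 11 of 23 were called lower (6 without untreated KO replicate 2) and 2 higher. Hnf4a, the master factor of hepatocytes, had 11.39 and 11.65 in KO 6 h liver, against 11.7 and 11.54 in untreated KO liver.

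The tested enzymes that handle APAP itself mostly lay at or below their untreated level. The conjugation genes Ugt1a1, Ugt1a6a and Ugt1a9 have only shared probe sets and Por has none of its own, so these were not tested. Cyp2e1, which makes the reactive metabolite, had 13.08 and 13.01 in KO 6 h liver, against 13.03 and 12.98 in untreated KO liver (adjusted p = 0.779). Cyp1a2, which can make it too, fell by 1.03 (adjusted p = 0.000708), and Papss2, which supplies sulfate for conjugation, by 0.84 (adjusted p = 0.00461). In all 8 of 17 disposition genes were called lower (5 without untreated KO replicate 1) and 1, Ugt2b35, higher (0 without KO 6 h replicate 2 and 0 without untreated KO replicate 2). Of the perivenous genes, expressed where APAP is oxidised, 8 of 21 were called lower (38.1%), and of the periportal genes 8 of 19 (42.1%). These counts and that of the disposition genes stand against 19.1% called lower over all tested genes. Glul, glutamine synthetase of the cells next to the central vein, had 11.68 and 11.27 in KO 6 h liver, against 11.99 and 12.0 in untreated KO liver and did not pass (adjusted p = 0.195).

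Glucose output genes fell, 11 of 14 called lower with a median of -0.96, against 19.1% called lower over all tested genes. Igfbp2 was called higher, a call that ended without KO 6 h replicate 1 and without either untreated KO array. Pck1, the control step of gluconeogenesis, had 10.72 and 10.8 in KO 6 h liver, against 12.48 and 12.32 in untreated KO liver, a difference of -1.64 ± 0.11 on the log2 scale (adjusted p = 7.78e-06). G6pc, which releases free glucose, differed by -1.45 ± 0.19 on the log2 scale (adjusted p = 0.000267), Pygl, glycogen phosphorylase, by -1.31 ± 0.15 (adjusted p = 0.000118), and Ppp1r3b, which targets a phosphatase to glycogen, by -2.61 ± 0.46 (adjusted p = 0.00166). For Pck1 the KO 6 h arrays lay below the untreated ones.

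Secreted liver proteins differed by list, against 15.8% called higher and 19.1% called lower over all tested genes. The counts of acute phase genes lay near these shares. Complement genes fell, 14 of 14 called lower with a median of -0.83, and 9 were called lower without KO 6 h replicate 1 and 9 without untreated KO replicate 1. Mbl2 and Mbl1, the mannose-binding lectins, differed by -1.62 ± 0.17 and -1.5 ± 0.12 (adjusted p = 7.68e-05 and 2.5e-05), and C9, of the membrane attack complex, by -0.83 ± 0.14 on the log2 scale (adjusted p = 0.00121). Of the coagulation genes 11 of 19 were called lower (7 without KO 6 h replicate 1 and 7 without untreated KO replicate 1). F7, the short-lived factor of the extrinsic path, had 8.47 and 8.81 in KO 6 h liver, against 9.84 and 9.78 in untreated KO liver, a difference of -1.17 ± 0.14 on the log2 scale (adjusted p = 0.000179). F10 differed by -1.03 ± 0.1 on the log2 scale (adjusted p = 7.41e-05), and fibrinogen Fgg had 12.67 and 12.88 in KO 6 h liver, against 12.84 and 12.81 in untreated KO liver. Acute phase genes showed no common direction, with 3 of 20 higher (1 without KO 6 h replicate 2) and 4 lower. Lcn2, lipocalin 2, which withholds iron from bacteria, rose by 2.55 ± 0.22 on the log2 scale (adjusted p = 3.34e-05), and Saa3 and Saa4, members of a family of near-copies, fell by 1.31 and 0.91.

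Structural and repair genes rose. Of the cytoskeleton and epithelial stress genes 19 of 26 were called higher and 0 lower (median 0.83). Tubb6, a beta tubulin, had 11.46 and 11.38 in KO 6 h liver, against 7.49 and 7.88 in untreated KO liver, a rise of 3.73 ± 0.23 on the log2 scale (adjusted p = 6.09e-06). Ccn1, a matrix protein of tissue repair, rose by 2.58 ± 0.35 on the log2 scale (adjusted p = 0.000345), Anxa2, a membrane-binding annexin, by 2.31 ± 0.27 (adjusted p = 0.00015), the hepatocyte keratin Krt18 by 1.8 ± 0.18 (adjusted p = 7.79e-05) and Vcl, vinculin, by 1.08 ± 0.12 (adjusted p = 9.84e-05). For Tubb6 both KO 6 h arrays were far above the untreated ones. Btc, an EGF receptor ligand, rose by 2.22 ± 0.24 on the log2 scale (adjusted p = 9.75e-05) and Tgfa by 0.65 ± 0.12 (adjusted p = 0.00186), while the receptor Erbb3 fell by 1.33 (adjusted p = 0.000655). The ligand list as a whole had 5 of 11 called higher, and 2 without KO 6 h replicate 1 or without either untreated KO array. Plaur, the urokinase receptor, rose by 1.72 ± 0.26 on the log2 scale (adjusted p = 0.000613). Matrix and plasminogen genes had 6 of 20 called higher (2 without KO 6 h replicate 1, and 2 and 3 without untreated KO replicates 1 and 2).

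Death and growth control genes differed by list, against 15.8% higher and 19.1% lower over all tested genes. Of the death machinery 9 of 21 were called higher and 0 lower. Bcl2l11, the killer protein BIM, rose by 1.84 ± 0.14 on the log2 scale (adjusted p = 1.49e-05), Mlkl, the pore-former of necroptosis, by 1.61 ± 0.15 (adjusted p = 4.39e-05), and Bid by 0.97 ± 0.16 (adjusted p = 0.00126), as did their opponents Mcl1, by 0.81 ± 0.17 (adjusted p = 0.0044), and Bcl2l1, by 0.67 ± 0.15 (adjusted p = 0.00631). Ripk3, the kinase that activates MLKL, had 6.15 and 6.12 in KO 6 h liver, against 6.18 and 6.23 in untreated KO liver (adjusted p = 0.682). Bak1, counted among the 9, has no settled direction, since its brightest probe set differed by 1.07 ± 0.14 on the log2 scale (adjusted p = 0.000299), the other by -1.09 (adjusted p = 0.000142), and their mean by -0.01 (adjusted p = 0.945). Among p53 targets, with a median of 0.0, 7 of 24 were called higher and 4 lower (2 without either KO 6 h array and 1 without untreated KO replicate 2). Cdkn1a, the cell cycle inhibitor p21, had 11.34 and 10.44 in KO 6 h liver, against 6.96 and 8.74 in untreated KO liver, a rise of 3.04 ± 0.65 on the log2 scale (adjusted p = 0.00498), and Mdm2, the p53 ligase, rose by 1.22 ± 0.23 (adjusted p = 0.0025), and by 0.75 without KO 6 h replicate 1. Fas, a death receptor counted among the p53 targets and not in the death machinery, fell by 1.41 (adjusted p = 0.000267). Of the cell cycle genes 3 of 24 were called higher (1 without KO 6 h replicate 2 or either untreated KO array) and 9 lower (5 without KO 6 h replicate 1 and 5 without untreated KO replicate 2), with a median of -0.15. Ccnd1, cyclin D1, which starts the cell cycle, rose by 1.78 ± 0.29 on the log2 scale (adjusted p = 0.00112), while Mki67, a proliferation marker, fell by 1.29 (adjusted p = 0.00298).

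Early response genes, the first to answer a stimulus, were in part still above the untreated level. The counts that follow stand against 15.8% called higher over all tested genes. Of the AP-1 and ATF factors 6 of 8 were called higher at 6 h than in untreated KO liver. Jun rose by 1.87 ± 0.38 on the log2 scale (adjusted p = 0.00387) and Junb by 1.54 ± 0.3 (adjusted p = 0.00301), and without KO 6 h replicate 1 the rise of Jun was 1.16. Of the Egr, Ier, Myc and KLF genes 9 of 21 were called higher, among them Ier3, which rose by 2.7 ± 0.42 on the log2 scale (adjusted p = 0.000777), and Klf6, which rose by 2.19 ± 0.52 (adjusted p = 0.00864), and by 1.06 and 3.32 without KO 6 h replicates 1 and 2. The stress kinase phosphatase Dusp8 differed by 3.81 ± 0.58 on the log2 scale (adjusted p = 0.000694), and Dusp14 by 1.93 ± 0.22 (adjusted p = 0.000151). Over the hypoxia and glycolysis list the median was 0.09, against -0.05 over all tested genes. Hypoxia and glycolysis genes had 6 of 21 called higher (3 without untreated KO replicate 1), with Adm, adrenomedullin, a peptide that widens vessels, at 3.1 ± 0.28 on the log2 scale (adjusted p = 3.66e-05) and Aldoa, aldolase, at 1.67 ± 0.13 (adjusted p = 1.86e-05).

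Single inflammatory genes were called in both directions. Counts in this paragraph are to be read against 15.8% called higher and 19.1% called lower over all tested genes. Of the chemokines and cytokines 9 of 36 were called higher and 5 lower. Il1rn, the antagonist of the interleukin 1 receptor, had 10.0 and 7.94 in KO 6 h liver, against 5.73 and 5.84 in untreated KO liver, a rise of 3.19 ± 0.5 on the log2 scale (adjusted p = 0.000809). Ccl2, which draws monocytes, had 10.79 and 8.63 in KO 6 h liver, against 6.61 and 6.76 in untreated KO liver, a rise of 3.03 ± 0.54 on the log2 scale (adjusted p = 0.00175) that was 1.95 without KO 6 h replicate 1. Osmr, the oncostatin M receptor, rose by 1.76 ± 0.13 on the log2 scale (adjusted p = 1.33e-05), and Cxcl12 and Il18 fell by 1.56 and 1.83 (adjusted p = 1.02e-05 and 0.000183). Il6, which drives the acute phase response, had 6.19 and 6.07 in KO 6 h liver, against 5.85 and 5.84 in untreated KO liver. Tnf had 5.94 and 5.41 in KO 6 h liver, against 5.64 and 5.32 in untreated KO liver, and neither gene was called. Neutrophil markers had 0 of 16 called in either direction, with a median log2 difference of 0.22. Markers of Kupffer cells and macrophages had 8 of 18 called lower (2 without KO 6 h replicate 1 and 2 without untreated KO replicate 1) and 2 higher (1 without KO 6 h replicate 1 and 1 without either untreated KO array). Their summed level, as a mean log2 intensity over the 18 markers, was 8.01 and 8.09 in KO 6 h liver, against 8.32 and 8.19 in untreated KO liver. Endothelial markers had 7 of 19 called lower (4 without KO 6 h replicate 1). Of the same 19 endothelial markers 1 was called higher (3 after quantile normalization and 2 with the replicate number as a block). The part of cell numbers in these differences was not tested. Of 11 partners of PML in nuclear bodies 4 were called higher and 1 lower (0 without KO 6 h replicate 1 or either untreated KO array, and 2 after quantile normalization or with 16 added before log2). Rnf4, the ligase that tags SUMO-modified PML for breakdown, rose by 0.48 ± 0.09 on the log2 scale (adjusted p = 0.00308) and Usp7, a ubiquitin protease, by 0.51 ± 0.11 (adjusted p = 0.00553).

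In the other lists the counts with all arrays are to be read against 15.8% called higher and 19.1% called lower over all tested genes. Those of interferon and clock genes lay below these shares. The share of autophagy and lysosome genes called higher lay above 15.8%, and their share called lower lay near 19.1%. With an array left out, fewer genes were called over all tested genes too. The counts with an array left out are thus not to be read against these shares. Of the autophagy and lysosome genes 8 of 28 were called higher (5 without KO 6 h replicate 1 or without either untreated KO array) and 6 lower (3 without KO 6 h replicate 2 and 3 without untreated KO replicate 1). The cargo receptor Sqstm1, also known as p62, rose by 1.52 ± 0.09 on the log2 scale (adjusted p = 6.09e-06) and the lysosomal protease Ctsl by 0.78 ± 0.1 (adjusted p = 0.000242). Of the stress kinase (JNK) genes 4 of 12 were called higher (2 without untreated KO replicate 2), with Gadd45b, which turns on this path, at 2.64 ± 0.35 on the log2 scale (adjusted p = 0.000316). Of the phosphatases that end MAP kinase signals 5 of 14 were called higher, and the lower call, of Dusp2, ended without either KO 6 h array or untreated KO replicate 1. Feedback genes of NF-kB and cytokine signalling had 5 of 17 called higher (3 without KO 6 h replicate 1), and Bcl3, a partner of NF-kB, rose by 2.16 ± 0.29 on the log2 scale (adjusted p = 0.000309). Interferon genes had 3 of 25 called higher, 1 without KO 6 h replicate 2 and 0 with either KO 6 h replicate 1 or untreated KO replicate 2 left out. They had 4 called lower (2 without untreated KO replicate 1), among them Gbp7, a guanylate-binding protein, at -0.88 ± 0.16 on the log2 scale (adjusted p = 0.0023), and Bst2, tetherin, at -0.67 ± 0.13 (adjusted p = 0.00345). Of the clock genes 2 of 14 were called lower, and 1 without either untreated KO array. Per3, a clock repressor, had 5.93 and 4.75 in KO 6 h liver, against 7.99 and 8.15 in untreated KO liver, a difference of -2.73 ± 0.57 on the log2 scale (adjusted p = 0.00411). Lymphocyte markers had 4 of 15 called lower (2 without KO 6 h replicate 1 and 2 without untreated KO replicate 2). Fat tissue markers had 0 of 5 called, and pancreas markers 1 of 5 called lower (0 without KO 6 h replicate 1 or either untreated KO array, and 0 after quantile normalization).

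The 2 KO 6 h arrays differed from each other more than the arrays of the other groups did, apart from KO 2 h. A gap of at least 1 on the log2 scale separated them in 184 of 17052 genes, 152 of them higher in replicate 1 and 32 higher in replicate 2. The same count was 65 between the untreated KO arrays, 192 between the KO 2 h arrays and 86 between the wt 6 h arrays. Of the 610 genes called at least 2-fold higher, 446 (73.1%) had changed more in replicate 1, with a median difference of 1.44 in replicate 1 and 1.22 in replicate 2, each set against the untreated mean. Of the 637 genes called at least 2-fold lower, 450 (70.6%) had changed more in replicate 1 (medians -1.44 and -1.28).

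The genes with the widest gaps were picked after their values were seen, and they include secreted and inflammatory ones. Muc3, an intestinal mucin, had 12.8 and 6.35 in KO 6 h liver, against 6.35 and 6.38 in untreated KO liver, and the wt 6 h arrays were split as well, at 6.01 and 12.09. Cxcl2, which draws neutrophils, had 8.97 and 3.24 in KO 6 h liver, against 2.75 and 3.01 in untreated KO liver, while both wt 6 h arrays were high at 11.61 and 11.01. Bmp4, a bone morphogenetic protein, had 10.94 and 7.64, the macrophage elastase Mmp12 11.2 and 8.01 and Clec4e, a lectin receptor of dying cells, 7.4 and 4.42 in KO 6 h replicates 1 and 2. Chac1, which degrades glutathione, had 10.2 and 7.58, and the small MAF factor Maff 9.51 and 6.88 in the same arrays. Replicate 1 was the high array in all 7 of these genes. The acute phase gene Saa2 (6.42 and 9.37) and Ppp1r3c, a glycogen-targeting subunit (7.07 and 9.12), were higher in replicate 2.

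**Figure D3:**
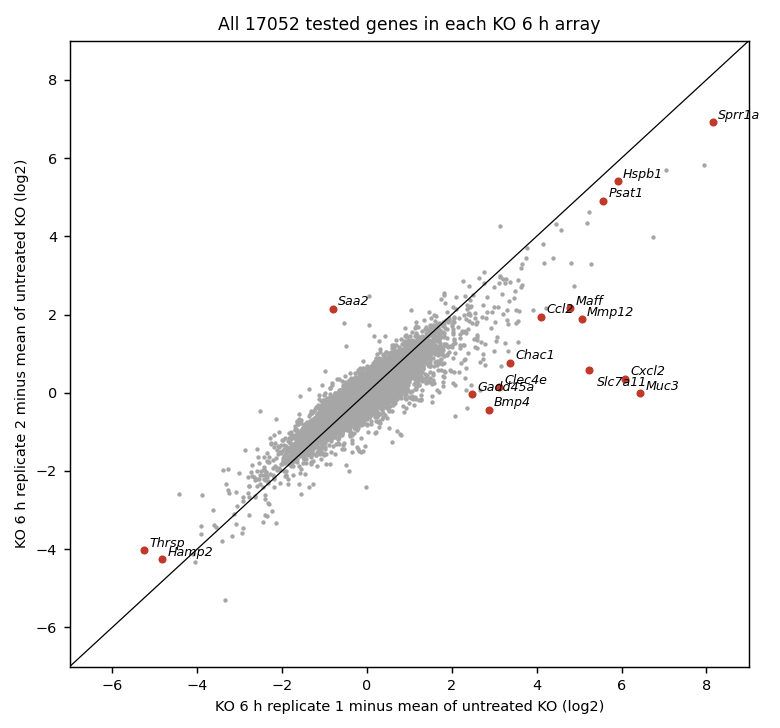
Change of each gene against the untreated KO mean in KO 6 h replicate 1 (horizontal axis) and KO 6 h replicate 2 (vertical axis), both as log2 differences; each point is a tested gene and the line marks equal change. Labelled genes such as Muc3 and Cxcl2 are high in replicate 1 and near 0 in replicate 2.

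The later hours were then set directly against 2 h, since the 2 h and 6 h responses share the untreated KO arrays. Between KO 6 h and KO 2 h 5401 genes (31.7%) were called, 3257 higher (19.1%) and 2144 lower (12.6%). Psat1 had log2 intensities of 6.26 and 6.13 before APAP, 6.28 and 6.81 after 2 h and 11.76 and 11.1 after 6 h, a difference of 4.88 ± 0.22 between 6 h and 2 h (adjusted p = 4.42e-06). Sprr1a had 5.14 and 5.1 before APAP, 5.64 and 5.73 after 2 h and 13.28 and 12.04 after 6 h (6.97 ± 0.46, adjusted p = 2.46e-05). Both were thus near the untreated level at 2 h and high at 6 h. Slc39a10 (3.52 ± 0.25), the focal adhesion protein Tes (3.52 ± 0.19) and Bmp8b (3.46 ± 0.15) were higher at 6 h as well (adjusted p = 2.78e-05, 9.88e-06 and 4.42e-06).

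Genes of the first hours had receded. Fos had 3.98 and 3.67 before APAP, 11.29 and 11.45 after 2 h and 5.61 and 5.0 after 6 h, a difference of -6.06 ± 0.32 between 6 h and 2 h (adjusted p = 9.88e-06). Nr4a1, a nuclear receptor of the early response, had 5.05 and 4.57, 10.52 and 11.92 and 6.63 and 5.35 at the same 3 times (-5.23 ± 0.64, adjusted p = 0.000337), and Egr1 6.4 and 6.48, 12.44 and 12.43 and 9.69 and 7.72 (-3.74 ± 0.44, adjusted p = 0.000304). Each was highest at 2 h in both arrays. Of the AP-1 and ATF factors 6 of 8 were called lower at 6 h than at 2 h, and of the Egr, Ier, Myc and KLF genes 12 of 21. Atf3 had 12.68 and 12.46 after 2 h and 12.56 and 11.2 after 6 h (adjusted p = 0.206), both far above untreated. The genes of fat oxidation had 26 of 32 called lower and 0 higher between 6 h and 2 h, with a median of -0.81 over the list and -0.01 over all tested genes. These 3 counts were 4, 10 and 18 without KO 6 h replicate 2. Pdk4, which spares glucose in fasting, had 8.73 and 8.97 before APAP, 12.43 and 10.9 after 2 h and 10.34 and 9.12 after 6 h. Endoplasmic reticulum folding genes had 14 of 26 called higher than at 2 h (median 0.53), and 7 without KO 6 h replicate 2 or KO 2 h replicate 2. Replication licensing genes had 9 of 11 called higher than at 2 h, and 5 without KO 6 h replicate 2. Mcm4, a subunit of the replicative helicase, had 7.65 and 7.98 before APAP, 6.74 and 6.8 after 2 h and 7.6 and 7.88 after 6 h.

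**Figure D4:**
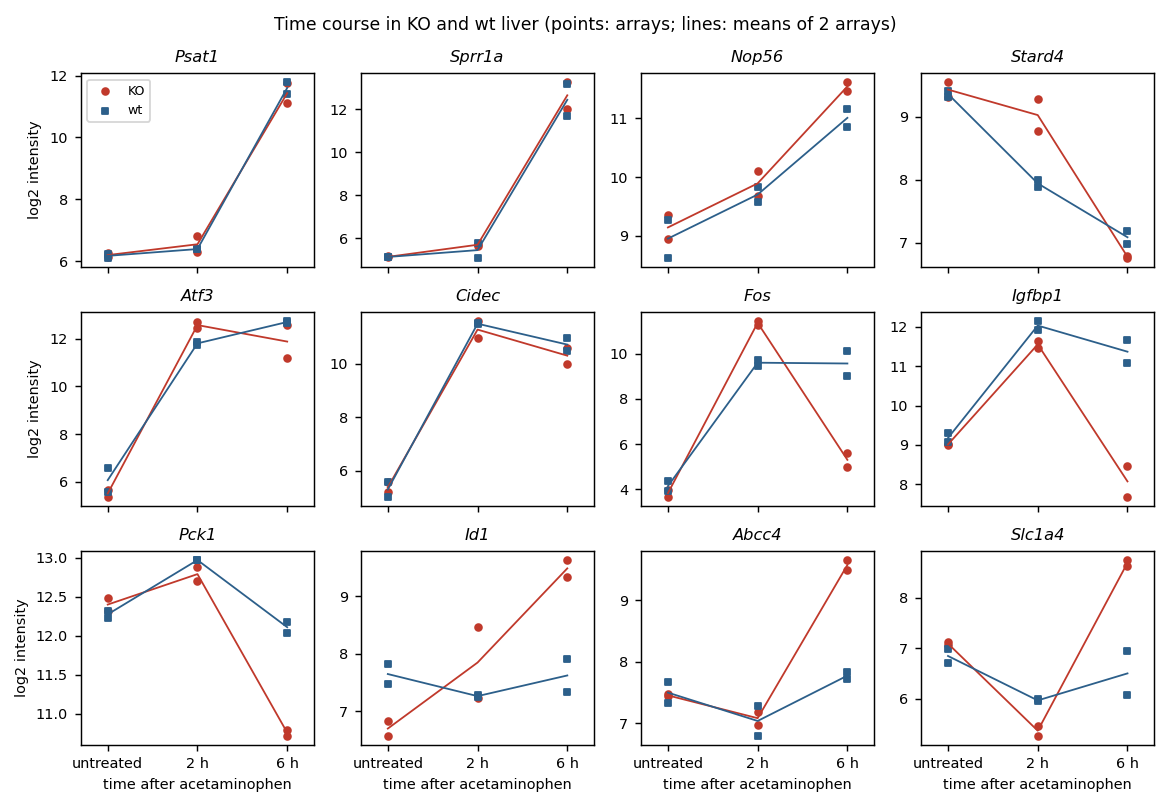
Log2 intensity in KO liver (red circles) and wt liver (blue squares) for untreated mice and 2 h and 6 h after APAP, for 12 genes; points are arrays and lines join the means of 2. In KO liver Fos is highest at 2 h, while Psat1 and Sprr1a are low until 2 h and high at 6 h.

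Whether the 6 h response differed between the genotypes was tested as the KO response minus the wt response, over 8 arrays that the 2 responses do not share. It was called in 83 of 17052 genes (0.487%), 15 higher (0.088%) and 68 lower (0.399%), and 2764 genes had an unadjusted p under 0.05. Of the 68 lower, 47 had risen by at least 1 in wt, and 56 had a KO difference between -1 and 1. Of the 47 that rose in wt, 38 had untreated means within 0.5 of each other, and in 4 the untreated KO mean was at least 1 above the untreated wt mean. The call rests on few genes, and 15 of the 83 were called without each of the 8 arrays in turn. The total was 286 and 46 on leaving out KO 6 h replicates 1 and 2, and 40 and 18 on leaving out untreated KO replicates 1 and 2. Without a wt array it was 43 and 223 for replicates 1 and 2 at 6 h, and 21 and 31 for untreated replicates 1 and 2.

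Fos had 5.61 and 5.0 in KO 6 h liver, against 3.98 and 3.67 in untreated KO liver, and 10.12 and 9.02 in wt 6 h liver, against 4.35 and 3.93 in untreated wt liver. The KO response minus the wt response was -3.95 ± 0.45 (adjusted p = 0.00615). Gadd45g, a growth arrest gene, had 8.74 and 8.09 in KO 6 h liver, against 8.59 and 9.63 in untreated KO liver, and 9.95 and 9.94 in wt 6 h liver, against 6.11 and 5.7 in untreated wt liver (-4.74 ± 0.48, adjusted p = 0.00324). Its untreated KO arrays lay well above the untreated wt ones, and its 6 h KO arrays below the 6 h wt ones. Igfbp1, a stress-induced binding protein of insulin-like growth factors, had 8.46 and 7.68 in KO 6 h liver, against 9.0 and 9.02 in untreated KO liver, and 11.66 and 11.08 in wt 6 h liver, against 9.06 and 9.29 in untreated wt liver (-3.13 ± 0.34, adjusted p = 0.00476). Gprc5a, a retinoic acid-induced receptor, responded by 0.96 in KO and 4.96 in wt (-4.01 ± 0.48, adjusted p = 0.00749), Cetn4, a centrin, by 0.0 and 3.33 (-3.33 ± 0.24, adjusted p = 0.000371) and Pck1 by -1.64 and -0.16 (-1.48 ± 0.15, adjusted p = 0.00324). These 6 genes were called without each of the 8 arrays in turn, with adjusted p-values of at most 0.0461. A second Cetn4 probe set, nearly as bright, gave -0.38 (adjusted p = 0.351), so the result for Cetn4 holds for 1 of its 2 probe sets.

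Other genes whose KO response lay below the wt response lost the call without some arrays. Myc, the growth regulator, had 10.01 and 8.66 in KO 6 h liver, against 8.09 and 9.36 in untreated KO liver, and 11.33 and 11.04 in wt 6 h liver, against 6.33 and 6.88 in untreated wt liver. Its difference was -3.97 ± 0.62 (adjusted p = 0.0262), with adjusted p-values up to 0.11 when 1 array was left out, among them 0.0529 without KO 6 h replicate 2, 0.0721 without untreated KO replicate 2 and 0.102 without wt 6 h replicate 1. The calprotectin genes S100a8 and S100a9, abundant in neutrophils, responded by 0.18 and 0.21 in KO and by 2.67 and 2.75 in wt (adjusted p = 0.0132 and 0.0183). The neutrophil chemokine receptor Cxcr2 responded by 0.4 in KO and 3.61 in wt (adjusted p = 0.0226). Of 16 neutrophil markers 4 were called lower and 0 higher in this test, and the median response was 0.22 in KO and 1.71 in wt. That count of 4 was 0 without untreated KO replicate 2 or either untreated wt array, 1 without KO 6 h replicate 2, and 2 without untreated KO replicate 1 or wt 6 h replicate 1. It was 6 without KO 6 h replicate 1 and 7 without wt 6 h replicate 2. With an array left out, the adjusted p reached 0.0639 for S100a8, 0.0796 for S100a9 and 0.088 for Cxcr2. Of 70 tested small nuclear and nucleolar RNAs and host genes, a group picked after the calls were seen, 10 were called lower (14.3%, against 0.399% of all tested genes) and 0 higher.

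The KO response lay above the wt response in 15 genes. Atoh8, a factor downstream of BMP signalling, responded by 0.44 in KO and -1.23 in wt (1.66 ± 0.17, adjusted p = 0.00349), and Dexi by -0.47 and -1.96 (1.49 ± 0.19, adjusted p = 0.00992). Both were called without each of the 8 arrays in turn, and the KO difference of Atoh8 was 0.26 without KO 6 h replicate 2. Id1 responded by 2.79 in KO and -0.02 in wt (2.82 ± 0.47, adjusted p = 0.0329, and up to 0.133 with an array left out), and Hamp by 0.2 and -1.07 (1.28 ± 0.2, adjusted p = 0.0272, and up to 0.108). Abcc4 responded by 2.12 in KO and 0.28 in wt (1.84 ± 0.24, adjusted p = 0.0109, and 0.0537 without untreated KO replicate 2). Arrdc3 had 10.09 and 10.56 in KO 6 h liver, against 9.52 and 9.77 in untreated KO liver, and 9.43 and 9.84 in wt 6 h liver, against 11.21 and 11.22 in untreated wt liver. Arrdc3 started lower in untreated KO than in untreated wt liver, and so did Id1, at 6.57 and 6.82 against 7.82 and 7.47. At 6 h Id1 was at 9.34 and 9.63 in KO and 7.34 and 7.9 in wt liver.

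**Figure D5:**
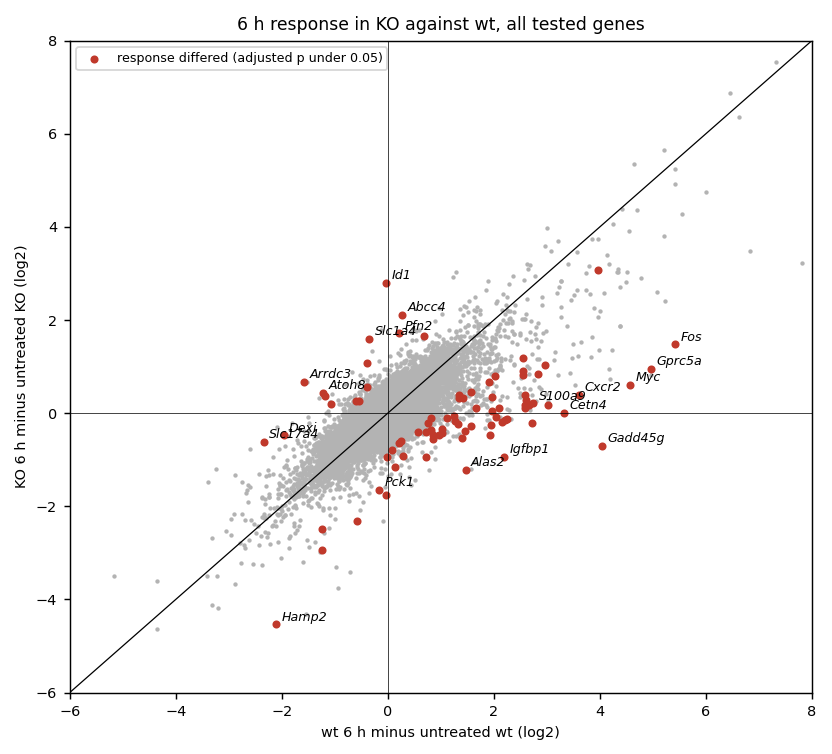
Log2 difference at 6 h against untreated in KO liver and in wt liver (vertical axis: KO; horizontal axis: wt) for all tested genes, with the 83 genes called in the test of the difference marked; the line marks equal responses. Of the 68 marked genes below the line, 47 had risen by at least 1 in wt, and Gadd45g, Gprc5a, Myc and Fos lie farthest from it.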

How the data were processed

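Each of 12 liver RNA samples was run on 1 Affymetrix Mouse Gene 1.1 ST array. Per the submitters' processing notes, the authors used Affymetrix Expression Console and RMA, their versions not being given in the sources used here. What the authors deposited are linear normalized intensities (array medians between 79.9 and 90.1), which were turned into log2 values without a pseudocount. Of 35556 probe sets, 21218 carried 1 gene symbol in the platform annotation, and the other 14338 (several symbols, or none) were not used. Genes were tested on their probe set with the highest mean, where that mean was at least 5 on the log2 scale over the 12 arrays. Near-identical genes (Gstm, Acot, Saa, Hamp, metallothionein families) may share signal.

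The 6 group means were fitted jointly over the 12 arrays by lmFit and eBayes (no trend) of limma 3.58.1, run in R 4.3.3, which left 6 residual and 4.33 prior degrees of freedom. P-values are two-sided and adjusted by the Benjamini-Hochberg method over all 17052 tested genes, and a gene is called at an adjusted p under 0.05. Values after ± are standard errors. Comparisons were KO 6 h against untreated KO, KO 6 h against KO 2 h, and the 6 h response in KO minus that in wt. The fit was tested on simulated data.

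The comparison, members and gene lists were chosen with earlier results of these data known, and lists are described by counts and medians without a set test. Of the listed members, 1124 were tested, 12 lay below the mean, and 64 had no probe set of their own and 53 a shared one and were not analysed here. Named genes are Pml, the 10 largest rises and falls of each comparison among called genes without overlap of arrays (predicted genes and small RNAs counted only), and from each list its key members, the 6 with the smallest p and those called in the interaction. Trap1, Me1, Igfbp2 and Ugt2b35, and the genes with the widest gaps between the KO 6 h arrays, were named after their values were seen. Promoters came from the RefSeq table of GRCm38.p6.

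Alternatives were no filter or a minimum mean of 7, quantile normalization, probe sets averaged per gene or tested singly, a variance trend, only the compared groups, the replicate number as a block, 16 added before log2, and each array left out. After seeing the data, counts of list members at 6 h against 2 h and in the interaction were added without each array. Deviations of same-numbered arrays from their group means correlated at -0.134 to 0.185 between groups, so the samples were not treated as paired. With 2 arrays a group, this check cannot decide whether equal numbers share a batch.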

Additional observations from a re-analysis of the deposited data

Results flagged for a closer look

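The 6 h response of KO liver minus that of wt liver passed the test in 83 genes, and the differences below, on the log2 scale, are those of the named genes among them. The cause of each was not tested.

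Early response, growth and stress genes had a KO response below the wt response: Gadd45g by -4.74, Gprc5a by -4.01, Myc by -3.97, Fos by -3.95, Ier2 by -2.43, the RNA-binding protein Zfp36 by -2.36, Egr2 by -2.0, the cytokine inhibitor Socs3 by -1.93 (-0.43 on its other probe set, adjusted p = 0.298), Herpud1 of endoplasmic reticulum stress by -1.20 and the splicing kinase Clk1 by -1.18. Genes abundant in neutrophils or in vessels under inflammation were lower as well: Cxcr2 by -3.22, S100a9 by -2.54, S100a8 by -2.50, Trem1 by -2.37 and the adhesion molecule Sele by -1.09.

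Among other genes, Cetn4 differed by -3.33 (-0.38 on its other probe set, adjusted p = 0.351), Igfbp1 by -3.13, Nrg4 by -2.85, the heme synthesis gene Alas2 by -2.68, Hamp2 by -2.43, the glycolytic genes Pfkp and Pkm by -1.84 and -1.12 (for Pkm -0.81 on its other probe set, adjusted p = 0.0543), Pck1 by -1.48, Mt1 by -0.91 and Tat, which degrades tyrosine, by -0.84. The KO response lay above the wt response for Id1 at 2.82, Arrdc3 at 2.26, Slc1a4 at 1.95, Abcc4 at 1.84, Slc17a4 at 1.73, Atoh8 at 1.66, Cldn2 at 1.56, Pfn2 at 1.5, Dexi at 1.49, Derl3 at 1.47 and Hamp at 1.28. Hamp and Hamp2, which are near-copies, lay on opposite sides.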

How the results depend on the processing

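Leaving out 1 array at a time gave 3845 to 5266 called genes for KO 6 h against untreated KO (5949 with all arrays), 3709 to 4413 for KO 6 h against KO 2 h (5401) and 18 to 286 for the KO response minus the wt response (83). The other alternatives gave 4707 to 6717 calls for the first and 62 to 108 for the last, out of unlike numbers tested. The 4707 were 55.2% of 8528 genes with a mean of at least 7. The 6717 and the 108 were probe sets, 34.9% and 0.561% of 19236 tested singly. In the main fit the shares were 34.9% and 0.487% of genes. A fit of the compared groups only called 3101 genes between 6 h and 2 h, with fewer arrays to estimate the spread. With the replicate number as a block, 5990, 5400 and 72 genes were called in the 3 comparisons, and whether equal numbers share a batch is not settled. Bak1 turned from 1.07 to -0.01 (adjusted p = 0.945) with the mean of its probe sets, of which the second was called lower (-1.09, adjusted p = 0.000142). With that mean the interaction of Socs3 was no longer called. Of 349 named genes called at 6 h against untreated KO, 294 and 326 were still called without KO 6 h replicates 1 and 2, and 298 and 299 without untreated KO replicates 1 and 2. Of 36 named in the interaction, 9 (without untreated KO replicate 2) to 35 were still called with 1 array left out. Of the calls at 6 h, 45.4% were higher, against 50.1% after quantile normalization. With 2 arrays a group, differences under about the spread between arrays could not be told apart from 0.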
